A study of Macaca fascicularis with 32 samples.

Results

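The cadherin and protocadherin genes described here were the 42 of 22316 annotated genes whose symbol began with CDH and a digit or with PCDH, 23 CDH and 19 PCDH genes. They were followed in nuclei of the substantia nigra (SN), where the dopamine neurons of the midbrain lie, and of the putamen (PUT) and CN, labelled caudal nucleus and read here as the caudate nucleus. Both are striatal regions that those neurons project to. The organism field gives cynomolgus macaque (Macaca fascicularis), while the extraction protocol names Macaca mulatta, so the species rests on the field alone. For the PD group, Parkinson's disease was modelled by an adeno-associated virus that carries α-synuclein, combined with poly(ADP-ribose), which PARP enzymes build up on proteins. CT stands for control. By the labels, SN had 4 PD and 4 CT samples, PUT 4 PD and 8 CT samples, and CN 4 PD and 8 CT samples. They give no age, sex, dose or time, no promoter for the virus and nothing about what the CT animals received.

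The counts came as 6 matrices, 1 for each region and group, with no map from nuclei to samples, and the group of a matrix is known from its name alone. Each matrix was therefore 1 library, no difference below has a replicate check or a test, and the model, the animals and the library cannot be told apart. All intervals are 95% intervals for counting error only.

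Cadherins are adhesion proteins of the cell surface that bind through calcium-dependent extracellular repeats, mostly like to like. Classical cadherins of type I and type II hold on to the actin skeleton through catenins and help to sort neurons and to match synaptic partners. Protocadherins lack the catenin-binding tail. The δ-protocadherins are expressed in combinations by separate brain nuclei and circuits, and the clustered α, β and γ protocadherins give single neurons a surface identity used in self-avoidance.

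After filtering, 52639 of 56659 barcodes were retained as nuclei, with a median depth between 1170 UMIs (unique molecular identifiers, the counted molecules) in SN PD and 3013 UMIs in CN CT. Libraries shared between 14 and 38 barcode sequences a pair, at most 0.411% of the smaller one. Nuclei were clustered with the cadherin and protocadherin genes left out, and clusters were named from fixed marker genes, so each class name stands for nuclei that are like that cell type by markers alone. Dopaminergic neurons, for example, had UMIs of all 10 dopaminergic markers in both groups, at a summed level of 2426 CPM in PD and 2513 CPM in CT, beside 8.51 CPM and 5.85 CPM for 3 GABAergic markers. CPM is the number of UMIs of a gene per 1000000 UMIs of the class in that library. The libraries stood apart: of 120 clusters with at least 20 nuclei of a region's class, 71 drew 80% or more of their nuclei from 1 group, and these held 79.8% of the nuclei. Each cadherin or protocadherin difference past 2-fold between groups is therefore set beside the shared clusters, where there were any. Shared clusters are those with at least 20 nuclei of the class in both groups.

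Among the 42 genes, 31 had at least 50 UMIs over both groups in at least 1 of the 21 comparisons of a class within a region. The other 11 were not measured in any comparison. They were PCDH8, PCDH12, PCDH18, PCDHA8, PCDHB1, PCDHB5, PCDHB14, CDH1, CDH5, CDH15 and CDH16. CDH5, the VE-cadherin of endothelial junctions, had 15 UMIs in 88 endothelial nuclei of all libraries (136 CPM, 76.2 to 225) and 15 UMIs in 124 mural or fibroblast nuclei (75.3 CPM, 42.1 to 124). In oligodendrocytes it had 2 UMIs in 24281 nuclei. Both vessel classes were too small for a comparison. PCDH18 had 6 UMIs in the mural or fibroblast nuclei (30.1 CPM, 11.05 to 65.55), and CDH1, the E-cadherin of epithelia, 33 UMIs in 1079 astrocytes (20.4 CPM, 14.0 to 28.6).

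Type II classical cadherins held the clearest neuronal genes. CDH8, which is enriched at synapses of developing brain circuits, had 1278 CPM in PD and 1442 CPM in CT in SN dopaminergic neurons. In direct and indirect spiny projection neurons (SPNs), the output neurons of the striatum, it ranged from 1114 CPM to 1396 CPM over the 4 striatal libraries. In astrocytes it was between 28.6 CPM and 125 CPM, so the gene was higher in these neurons in all 3 regions. CDH12, a brain type II cadherin, had its highest level in other neurons of SN, at 287 CPM in PD and 291 CPM in CT, and in a small group of undivided SPNs of PUT, at 332 CPM in PD and 318 CPM in CT. These undivided SPNs had SPN markers without a clear direct or indirect identity, and their clusters had RXFP1 among the leading genes. CDH9, which guides synapse formation in mouse hippocampus, differed between the neuron classes of SN, with 160 CPM in PD and 168 CPM in CT in other neurons and 9.76 CPM in PD and 3.96 CPM in CT in dopaminergic neurons. In the striatal libraries CDH7 was highest in direct or indirect SPNs. In direct SPNs of PUT it was 257 CPM in PD and 151 CPM in CT, against 32.3 CPM and 22.0 CPM in oligodendrocytes there. In SN it was highest in other neurons, at 74.3 CPM in PD and 57.5 CPM in CT.

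In the CT libraries, the genes whose highest class reached at least 5 times the next class of another cell family were CDH12, CDH9, CDH8 and CDH7 in all 3 regions, and CDH17, CDH18 and CDH22 in CN. This was 4 of 20 genes with at least 50 UMIs in SN, 4 of 22 in PUT and 7 of 24 in CN, where all genes reached it in 11%, 11.8% and 12.2%. Each of these genes was highest in a neuron class. In the PD libraries the same rule held for 4 of 18, 5 of 21 and 3 of 22 genes (all genes 9.32%, 12.2% and 11.6%). Several next classes held few UMIs: CDH22 in CN CT was 52.1 CPM in other neurons and 2.51 CPM in precursors, where it had 1 UMI (ratio 20.8, 3.62 to 830), and CDH7 in SN CT had 1 UMI in astrocytes (ratio 8.04, 1.42 to 320).

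Of the other type II cadherins, CDH20, CDH19 and CDH10 were highest in glia. CDH20 lay between 1791 CPM and 2727 CPM in oligodendrocytes and between 2101 CPM and 2805 CPM in astrocytes, while direct and indirect SPNs held between 13.04 CPM and 52.2 CPM. Other neurons carried 324 CPM to 906 CPM, and dopaminergic neurons 228 CPM in PD and 162 CPM in CT. Among the neuron classes CDH20 was thus lowest in the SPNs. CDH19, known from developing Schwann cells, was highest in oligodendrocyte precursors (428 CPM to 581 CPM), followed by oligodendrocytes (238 CPM to 428 CPM), and was at 8.12 CPM or lower in direct and indirect SPNs and in dopaminergic neurons. CDH10 was highest in precursors too, between 356 CPM and 484 CPM, but neurons also held it, with 202 CPM in other neurons of SN PD. CDH11, a type II cadherin of mesenchyme and brain, was highest in undivided SPNs in both striatal regions, between 226 CPM and 286 CPM.

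Among type I cadherins, CDH4 (R-cadherin) was highest in astrocytes in all 6 libraries. It had 822 CPM in PD and 793 CPM in CT in SN, 1026 CPM and 486 CPM in PUT, and 745 CPM and 433 CPM in CN, against 20.4 CPM or less in oligodendrocytes. The SN astrocyte levels rest on 32 nuclei in PD and 105 in CT, too few for a comparison. With the cadherin and protocadherin genes allowed into the clustering, only 5 and 3 nuclei were named astrocytes there. CDH2 (N-cadherin, the main neural cadherin) was spread more widely. It had 243 CPM to 623 CPM in astrocytes, 365 CPM to 487 CPM in precursors, 94.7 CPM to 398 CPM over all neuron classes, 201 CPM to 265 CPM in oligodendrocytes and 29.7 CPM to 95.96 CPM in microglia or macrophages. CDH3, the P-cadherin of epithelia, was low in the brain classes and highest in precursors, between 17.9 CPM and 28.0 CPM.

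Among non-clustered protocadherins, PCDH9, a δ-1 protocadherin, had the most UMIs of any member, 793288 in all. It ranged from 8822 CPM to 9522 CPM in oligodendrocytes and from 7271 CPM to 9753 CPM in precursors. Microglia or macrophages had 580 CPM to 1369 CPM and the T or NK lymphocytes of SN PD 5621 CPM. Free RNA was not corrected for, and its part in these levels was not tested. PCDH15, which with CDH23 forms the tip link of inner ear hair cells, was a gene of oligodendrocyte precursors. It had 3166 CPM in PD and 2794 CPM in CT there in SN, 2480 CPM and 2499 CPM in PUT, and 2837 CPM and 3031 CPM in CN. Dopaminergic neurons had 631 CPM in PD and 601 CPM in CT, but direct and indirect SPNs only 6.06 CPM to 10.4 CPM. PCDH7 (δ-1) was lowest in oligodendrocytes, microglia and macrophages, between 14.9 CPM and 86.4 CPM, and between 89.5 CPM and 704 CPM in every neuron, astrocyte and precursor class. The δ-2 genes PCDH17 and PCDH10, whose tails can recruit the actin-regulating WAVE complex, were spread over all classes, PCDH17 between 32.6 CPM and 391.9 CPM and PCDH10 between 17.5 CPM and 221 CPM in the compared classes. PCDH19, a δ-2 gene of X-linked epilepsy, was highest in precursors, between 52.1 CPM and 89.6 CPM.

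The clustered protocadherins were represented by 2 α, 6 β and 1 γ gene models. PCDHAC2 and PCDHGA4 carried 32703 and 27452 of their UMIs, and the next, PCDHB4, 1468. Genes of the α and of the γ cluster share their last exons, which 3′ libraries read, and how such reads were assigned is not given in the sources used here, so these 2 counts may stand for several genes each. PCDHAC2 was highest in precursors, between 387 CPM and 581 CPM, and PCDHGA4 in astrocytes and precursors, between 316 CPM and 650 CPM. None of the 51 pairs of a clustered gene and a class with enough UMIs differed 2-fold between PD and CT. Over all pairs of a gene and a class, 1.76% were higher and 2.8% lower. At such shares few of 51 pairs would differ, so the count does not set the clustered genes apart. The ratios of these pairs ran from 0.523 for PCDHB4 in indirect SPNs of PUT to 1.80 for PCDHAC2 in oligodendrocytes of CN.

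**Figure D1:**
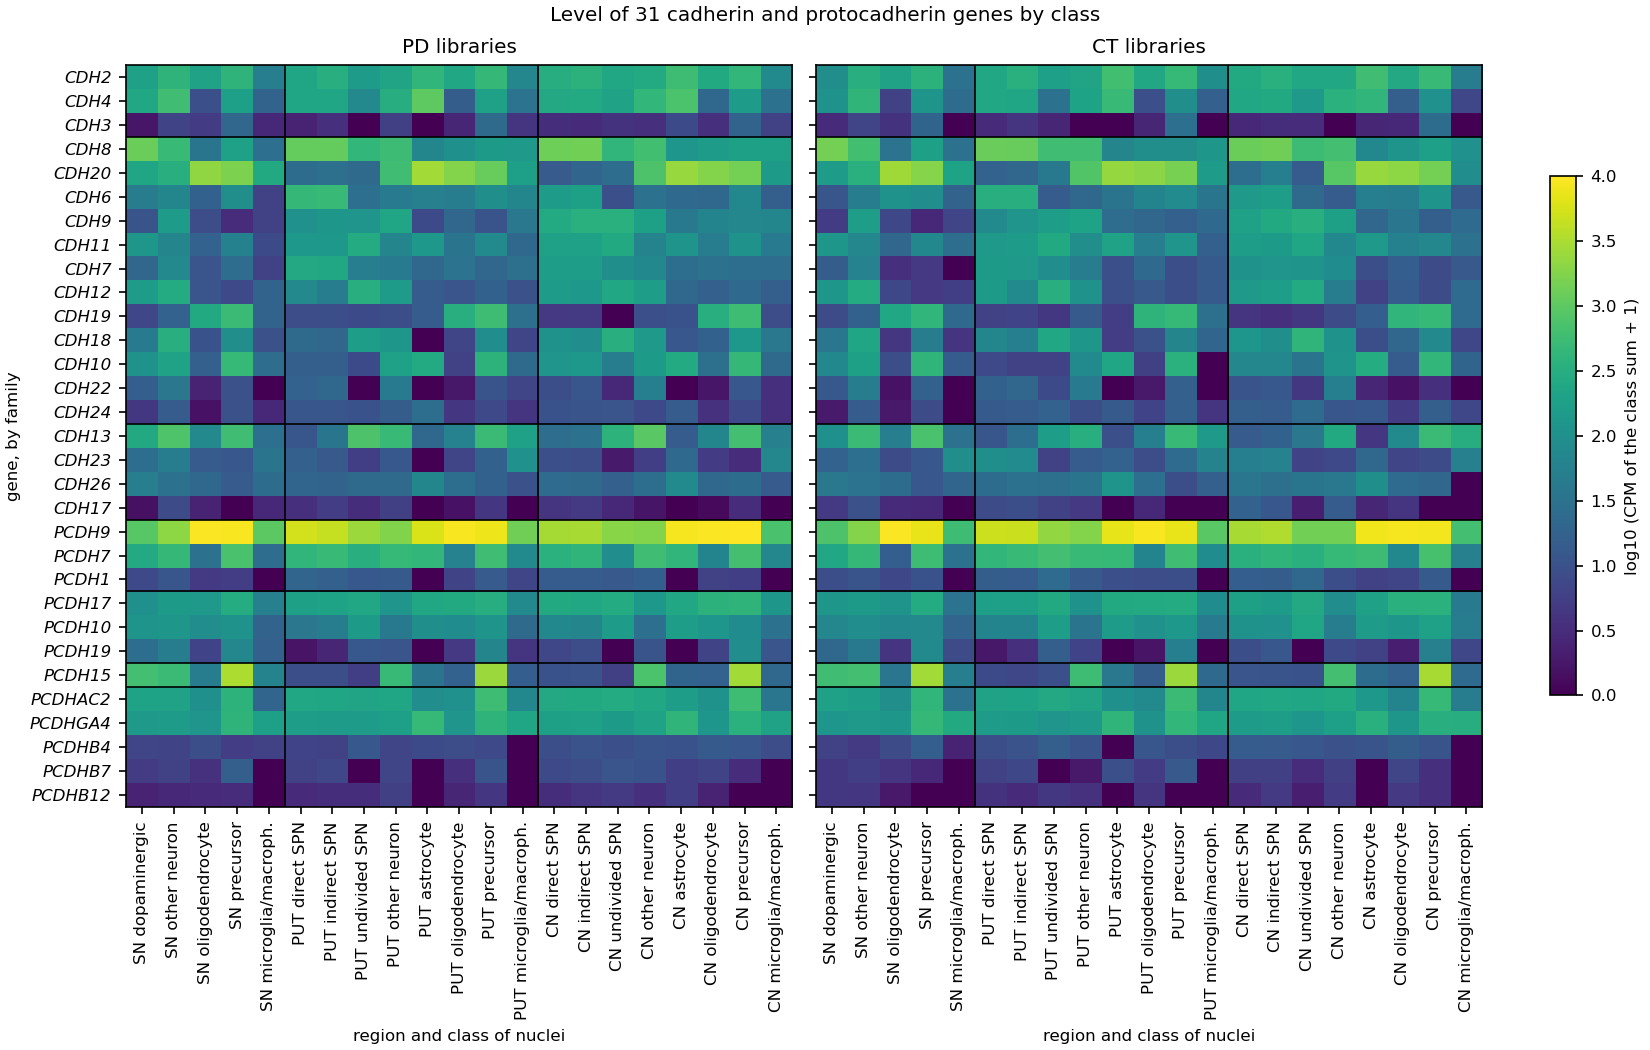
Level of the 31 measured genes (rows, by family, split by lines) in each compared class (columns, by region) as log10 of CPM + 1, with PD libraries on the left and CT libraries on the right. PCDH9 and CDH20 are bright in glia, CDH8 in dopaminergic neurons and SPNs and PCDH15 in precursors, in both groups.

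The PD and CT libraries were then compared within each class. Over all 407 pairs of a measured gene and a class, 24 were at least 2-fold higher in PD and 17 at least 2-fold lower, against 1.76% and 2.8% of all pairs of a gene and a class. By family, type I cadherins had 5 higher and 0 lower of 38 pairs, type II cadherins 12 higher and 6 lower of 165, and the remaining CDH genes 5 higher and 9 lower of 44. The δ-1 protocadherins had 1 higher and 1 lower of 48 pairs, the δ-2 protocadherins 1 higher and 1 lower of 46, and PCDH15 none of 15. The differences thus lay mostly in CDH genes. Those past 2-fold in the same direction in more than 1 comparison were CDH13 (5), CDH4 (4), CDH10 (4), CDH6 (3) and CDH7 (2) on the higher side, and CDH23 (5), CDH17 (3), CDH18 (2), CDH20 (2) and CDH6 (2) on the lower side. How many of all genes recurred in this way was not counted. Classes of a region came from the same pair of libraries, so their comparisons were not independent.

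**Figure D2:**
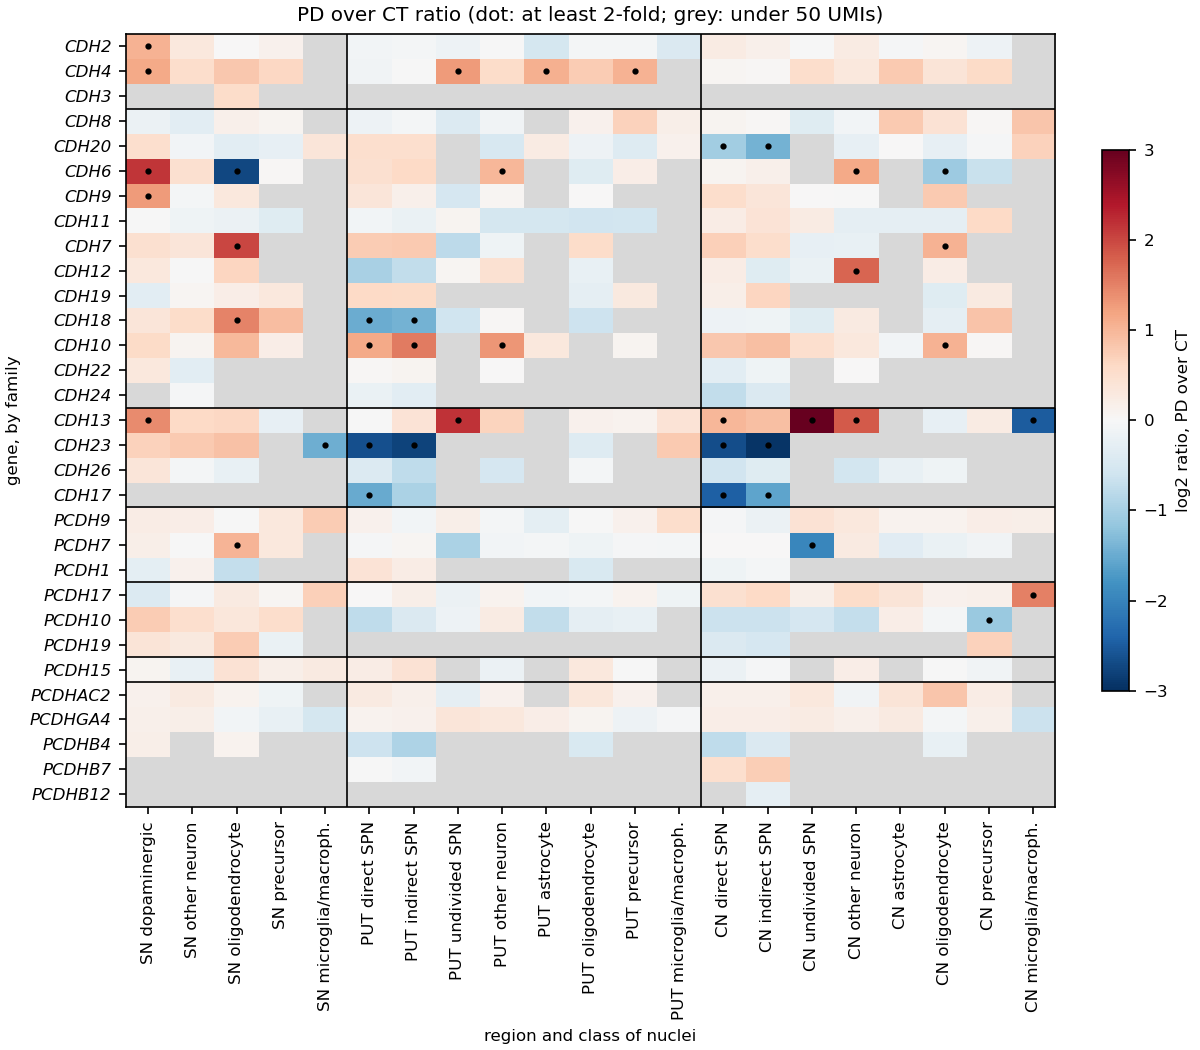
Log2 ratio of PD over CT for the 31 measured genes (rows, by family) in the 21 compared classes (columns, by region). Red is higher in PD and blue lower, colours end at 3 on either side, a dot marks at least 2-fold, and grey marks under 50 UMIs over both groups. CDH23 is blue in the direct and indirect SPN columns of PUT and CN, and the PCDH rows hold few dots.

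In dopaminergic neurons of SN (277 nuclei in PD, 354 in CT), 5 of 26 measured genes were at least 2-fold higher in PD and none lower, against 2.04% and 1.93% of 10705 genes. The median log2 ratio was 0.33 over the 26 genes and 0.03 over all genes. CDH6, a type II cadherin first described in kidney, had 47.8 CPM in PD and 10.8 CPM in CT (ratio 4.44, 3.29 to 6.08). CDH13, T-cadherin, which is anchored to the membrane by a lipid and has no cytoplasmic tail, had 273 CPM in PD and 102 CPM in CT (2.68, 2.41 to 2.97). CDH9 had 9.76 CPM in PD and 3.96 CPM in CT (2.46, 1.41 to 4.40). The type I genes stood with them: CDH4 had 240 CPM in PD and 109 CPM in CT (2.21, 1.99 to 2.45), and CDH2 had 195 CPM in PD and 94.7 CPM in CT (2.05, 1.83 to 2.30). CDH8, the member with the most UMIs among cadherins of these neurons, was 1278 CPM in PD and 1442 CPM in CT (0.886, 0.855 to 0.918).

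The dopaminergic nuclei of the 2 groups lay mostly in different clusters. A cluster led by CALCR and LMX1A held 59 PD and 8 CT nuclei. Clusters 12.2 and 12.5, which had ALDH1A1 among their leading genes, held 22 and 11 PD nuclei against 145 and 136 CT nuclei, and ALDH1A1 over the class was 224 CPM in PD and 406 CPM in CT. The CALCR-led cluster alone had 168 CPM of CDH6, 817 CPM of CDH4 and 420 CPM of CDH2 in PD, the highest of each. In the clusters with at least 20 nuclei of both groups, CDH6 was close: 40.5 CPM in PD and 35.2 CPM in CT in cluster 12.1, and 3.27 CPM in PD and 4.44 CPM in CT in cluster 12.2. CDH2 was 156 CPM in PD and 156 CPM in CT in cluster 12.1, and 111 CPM and 91.9 CPM in cluster 12.2. CDH4 went both ways, with 109 CPM in PD and 320 CPM in CT in cluster 12.1 and 144 CPM in PD and 43.9 CPM in CT in cluster 12.2. CDH13 was higher in PD in both, at 108 CPM against 57.0 CPM in CT in cluster 12.1 and 609 CPM against 138 CPM in CT in cluster 12.2. Weighting these clusters equally gave PD over CT ratios of 1.10 for CDH6, 1.08 for CDH2, 0.695 for CDH4 and 3.67 for CDH13, so of these 4 genes only CDH13 stayed past 2-fold. CDH9 was 12.4 CPM in PD and 10.05 CPM in CT in cluster 12.1, on 20 and 6 UMIs, and 0 CPM in PD and 3.55 CPM in CT in cluster 12.2, on 0 and 8 UMIs, too few for such a ratio.

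**Figure D3:**
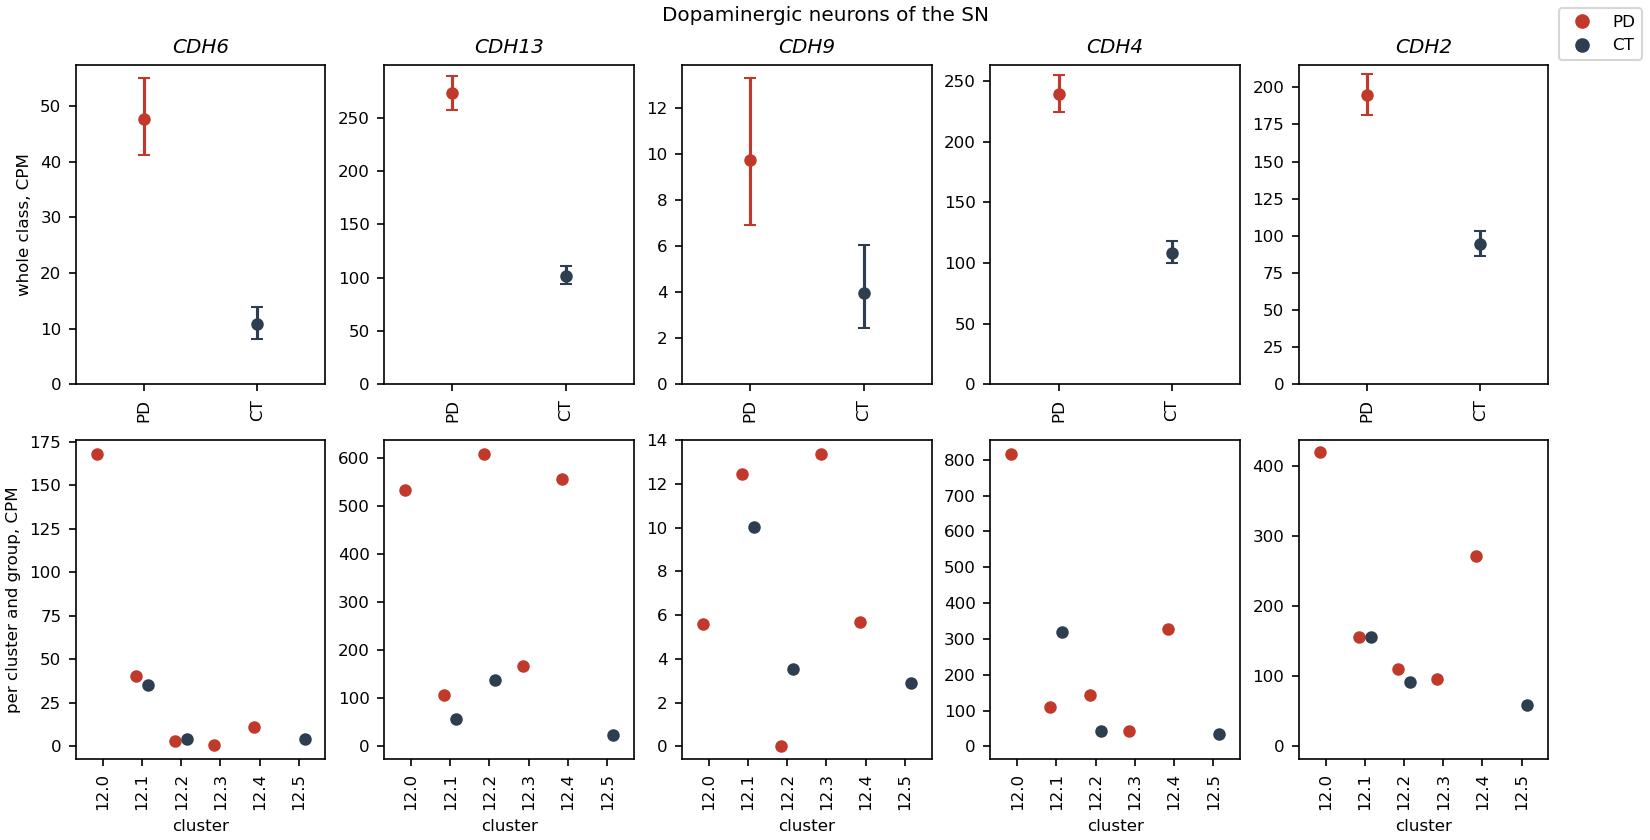
CPM of the 5 genes at least 2-fold higher in PD in SN dopaminergic neurons, over the whole class with exact Poisson 95% intervals (top) and by cluster for each group with at least 20 nuclei (bottom), PD in red to the left of CT in dark blue. The PD point of the CALCR-led cluster, the first on the axis, is the highest for CDH6, CDH4 and CDH2, and CDH13 is higher in PD in both clusters that show 2 points.

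Oligodendrocytes of SN, the myelin-forming cells (5701 nuclei in PD, 6639 in CT), had the lowest CDH6 ratio of any class. CDH6 was 16.6 CPM in PD and 111 CPM in CT (ratio 0.1497, 0.123 to 0.181), on 119 and 1011 UMIs. It was lower in PD in 10 of 10 clusters with nuclei of both groups. The 16 PD clusters lay between 0 CPM and 48.6 CPM and the 12 CT clusters between 66.8 CPM and 128 CPM, with no overlap. Clusters of a group came from 1 library and were not replicates, and how often other genes showed no overlap was not counted. In CN oligodendrocytes CDH6 was also lower, 21.6 CPM in PD and 46.3 CPM in CT (0.467, 0.340 to 0.642) and in 3 of 4 shared clusters, and in PUT it was 48.6 CPM in PD and 62.9 CPM in CT. No other gene of the 26 measured in SN oligodendrocytes was 2-fold lower, where all genes reached that in 3.39%. SPNs went the other way or were close. CDH6 was 454 CPM in PD and 323 CPM in CT in direct and 494 CPM in PD and 328 CPM in CT in indirect SPNs of PUT, higher in PD in 4 of 4 and 5 of 5 shared clusters. In CN it was 154 CPM in PD and 146 CPM in CT in direct SPNs, higher in PD in 4 of 4 shared clusters, and 188 CPM in PD and 169 CPM in CT in indirect SPNs, higher in 2 of 3.

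On the higher side, 3 of the 26 genes passed 2-fold in SN oligodendrocytes, against 2.57% of all genes. CDH7 had 10.3 CPM in PD and 2.52 CPM in CT (4.09, 2.53 to 6.85), CDH18 had 9.35 CPM in PD and 3.29 CPM in CT (2.84, 1.82 to 4.53), and PCDH7 had 30.2 CPM in PD and 14.9 CPM in CT (2.02, 1.62 to 2.52). CDH7 and CDH18 were higher in other neurons of SN, where CDH18 was 334 CPM in PD and 226 CPM in CT, and their counts in oligodendrocytes were 74 and 67 UMIs in PD and 23 and 30 UMIs in CT. In the same nuclei the 7 neuron markers summed to 492 CPM in PD and 404 CPM in CT, and the 7 precursor markers to 458 CPM in PD and 326 CPM in CT. The part of neuron or precursor RNA in the 3 values was not tested. CDH7 and CDH18 were each higher in PD in 7 of 10 shared clusters, and PCDH7 in 9 of 10.

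CDH23, the other tip-link cadherin, was the single gene past 2-fold in microglia or macrophages of SN, 1 of 6 measured, where all genes were 2-fold lower in 4.38% and higher in 5.89%. It had 33.2 CPM in PD and 93.5 CPM in CT (0.356, 0.201 to 0.602). Of the PD nuclei 374 lay in cluster 7.0, led by the macrophage gene F13A1, and the CT nuclei mostly in cluster 16.0. Within cluster 16.0 CDH23 was 30.98 CPM in PD, on few UMIs, and 91.6 CPM in CT. In PUT it ran the other way, 106 CPM in PD and 60.8 CPM in CT, on 36 and 19 UMIs (1.74, 0.974 to 3.22), an interval that holds 1. Other neurons (349 nuclei in PD, 321 in CT) and precursors (311 and 423) of SN had no gene past 2-fold among 26 and 18 measured, against 1.21% higher and 1.59% lower for all genes in other neurons and 0.834% and 1.43% in precursors.

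**Figure D4:**
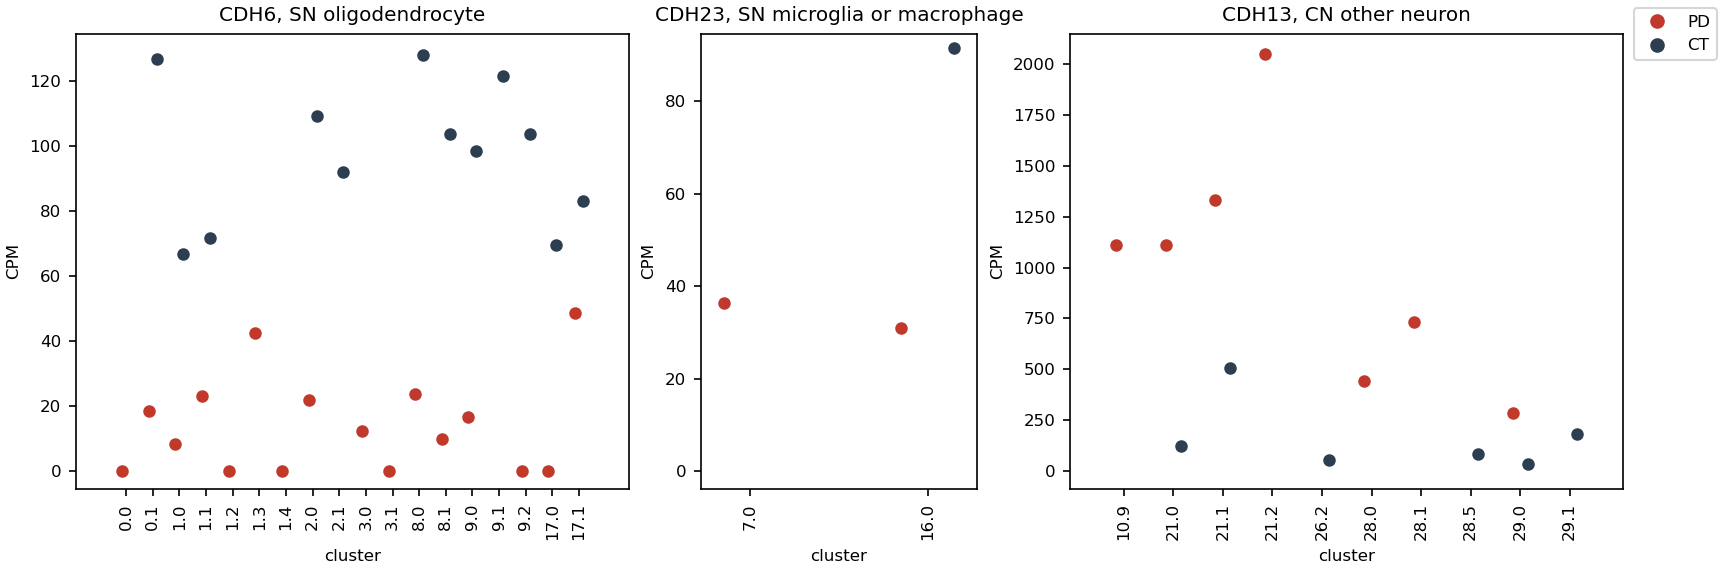
CPM by cluster for each group with at least 20 nuclei, PD in red to the left of CT in dark blue, for CDH6 in SN oligodendrocytes, CDH23 in SN microglia or macrophages and CDH13 in other neurons of CN. For CDH6 every PD point lies under every CT point, and for CDH13 the PD point is above the CT point in each cluster that shows both.

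In the striatum, CDH23 separated the groups in both SPN classes and both regions. In direct SPNs it was 15.7 CPM in PD and 98.0 CPM in CT in PUT (ratio 0.161, 0.130 to 0.197), and 8.43 CPM in PD and 53.1 CPM in CT in CN (0.159, 0.127 to 0.197). In indirect SPNs it was 12.1 CPM in PD and 84.0 CPM in CT in PUT (0.144, 0.114 to 0.180), and 7.67 CPM in PD and 58.9 CPM in CT in CN (0.130, 0.102 to 0.164). Cluster by cluster the groups did not overlap in any of these 4 comparisons. Here too the clusters of a group came from 1 library and were not replicates. How often other genes showed no overlap was not counted. In direct SPNs of PUT the 4 PD clusters held 0 CPM to 28.1 CPM and the 5 CT clusters 63.1 CPM to 115 CPM, and all 16 clusters with nuclei of both groups were lower in PD. Outside the direct and indirect SPNs of these libraries, undivided SPNs of PUT had 4.61 CPM in PD and 5.13 CPM in CT, and other neurons of PUT 11.6 CPM in PD and 13.5 CPM in CT. In undivided SPNs of CN, CDH23 was 5.68 CPM in CT over the class and 0.995 CPM in the 1 PD cluster with at least 20 nuclei. CDH23 had too few UMIs in these 3 comparisons to count as measured, so the values do not show whether it differed there. The largest SPN clusters of each region held mostly 1 group, such as cluster 24.0 of PUT with 1155 PD and 34 CT direct SPNs, but CDH23 was 14.9 CPM in PD and 115 CPM in CT within it.

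CDH17, the liver-intestine cadherin, was low but followed CDH23. In direct SPNs it was 2.60 CPM in PD and 7.55 CPM in CT in PUT (0.344, 0.189 to 0.594) and 3.04 CPM in PD and 16.9 CPM in CT in CN (0.180, 0.122 to 0.260). In indirect SPNs of CN it was 3.74 CPM in PD and 11.3 CPM in CT (0.331, 0.225 to 0.477), and in those of PUT 4.26 CPM in PD and 8.26 CPM in CT (0.516). All 7 shared clusters of CN were lower in PD, while in PUT 2 of 4 direct and 3 of 5 indirect clusters were, on few UMIs. CDH18, a brain type II cadherin, was lower in PD in PUT and not in CN by this threshold. It had 23.5 CPM in PD and 66.7 CPM in CT in direct SPNs of PUT (0.353, 0.294 to 0.422) and 19.7 CPM in PD and 53.1 CPM in CT in indirect SPNs (0.370, 0.305 to 0.447), and was lower in 4 of 4 and 4 of 5 shared clusters. In CN it was 113 CPM in PD and 126 CPM in CT in direct SPNs and 91.1 CPM in PD and 98.9 CPM in CT in indirect SPNs. By cluster CDH18 was lower in PD in CN as well, in 4 of 4 direct and 2 of 3 indirect shared clusters.

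CDH20 went the opposite way in the 2 striatal regions. In CN it was 13.04 CPM in PD and 27.1 CPM in CT in direct SPNs (0.481, 0.392 to 0.588) and 19.4 CPM in PD and 52.2 CPM in CT in indirect SPNs (0.371, 0.315 to 0.436). In PUT it was 24.8 CPM in PD and 17.4 CPM in CT in direct SPNs and 28.5 CPM in PD and 19.97 CPM in CT in indirect SPNs. In oligodendrocytes of the same 4 libraries its level was between 1791 CPM and 2124 CPM, and the part of glial RNA in the SPN values was not tested. By cluster CDH20 was mixed in CN: 2 of 4 shared direct clusters and 2 of 3 shared indirect clusters were lower in PD.

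CDH10 was the single gene at least 2-fold higher in PD in direct and in indirect SPNs of PUT. It had 14.98 CPM in PD and 6.75 CPM in CT in direct SPNs (2.22, 1.59 to 3.12) and 15.4 CPM in PD and 5.23 CPM in CT in indirect SPNs (2.95, 2.09 to 4.20). It was higher in CN as well, at 121 CPM in PD and 69.5 CPM in CT in direct SPNs (1.74) and 133 CPM in PD and 70.7 CPM in CT in indirect SPNs (1.88), and in other neurons of PUT, at 196 CPM in PD and 77.4 CPM in CT (2.53, 1.94 to 3.32) and in 2 of 2 shared clusters. In direct SPNs of PUT 4 of 4 shared clusters were higher in PD. In indirect SPNs of PUT 3 of 5 shared clusters were higher in PD, and weighting the shared clusters equally gave 1.02, on CT clusters of 21 to 28 nuclei for 2 of the 5 clusters. CDH13 passed 2-fold in direct SPNs of CN, with 26.1 CPM in PD and 12.9 CPM in CT (2.01, 1.64 to 2.48), and was higher in 3 of 4 shared clusters.

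In counts, 1 gene was higher and 3 lower of 28 in direct SPNs of PUT (all genes 1.78% and 2.66%), 1 higher and 2 lower of 28 in indirect SPNs of PUT (1.87% and 2.37%), 1 higher and 3 lower of 29 in direct SPNs of CN (1.27% and 4.02%), and 0 higher and 3 lower of 30 in indirect SPNs of CN (1.28% and 3.99%). In CN the median log2 ratio of all genes was itself -0.14 in direct and -0.15 in indirect SPNs, and the medians of the cadherin and protocadherin genes were 0.05 and -0.01. The genes with the most UMIs in SPNs differed little: CDH8 was 1311 CPM in PD and 1240 CPM in CT in direct SPNs of CN, and PCDH9 2904 CPM in PD and 2956 CPM in CT.

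**Figure D5:**
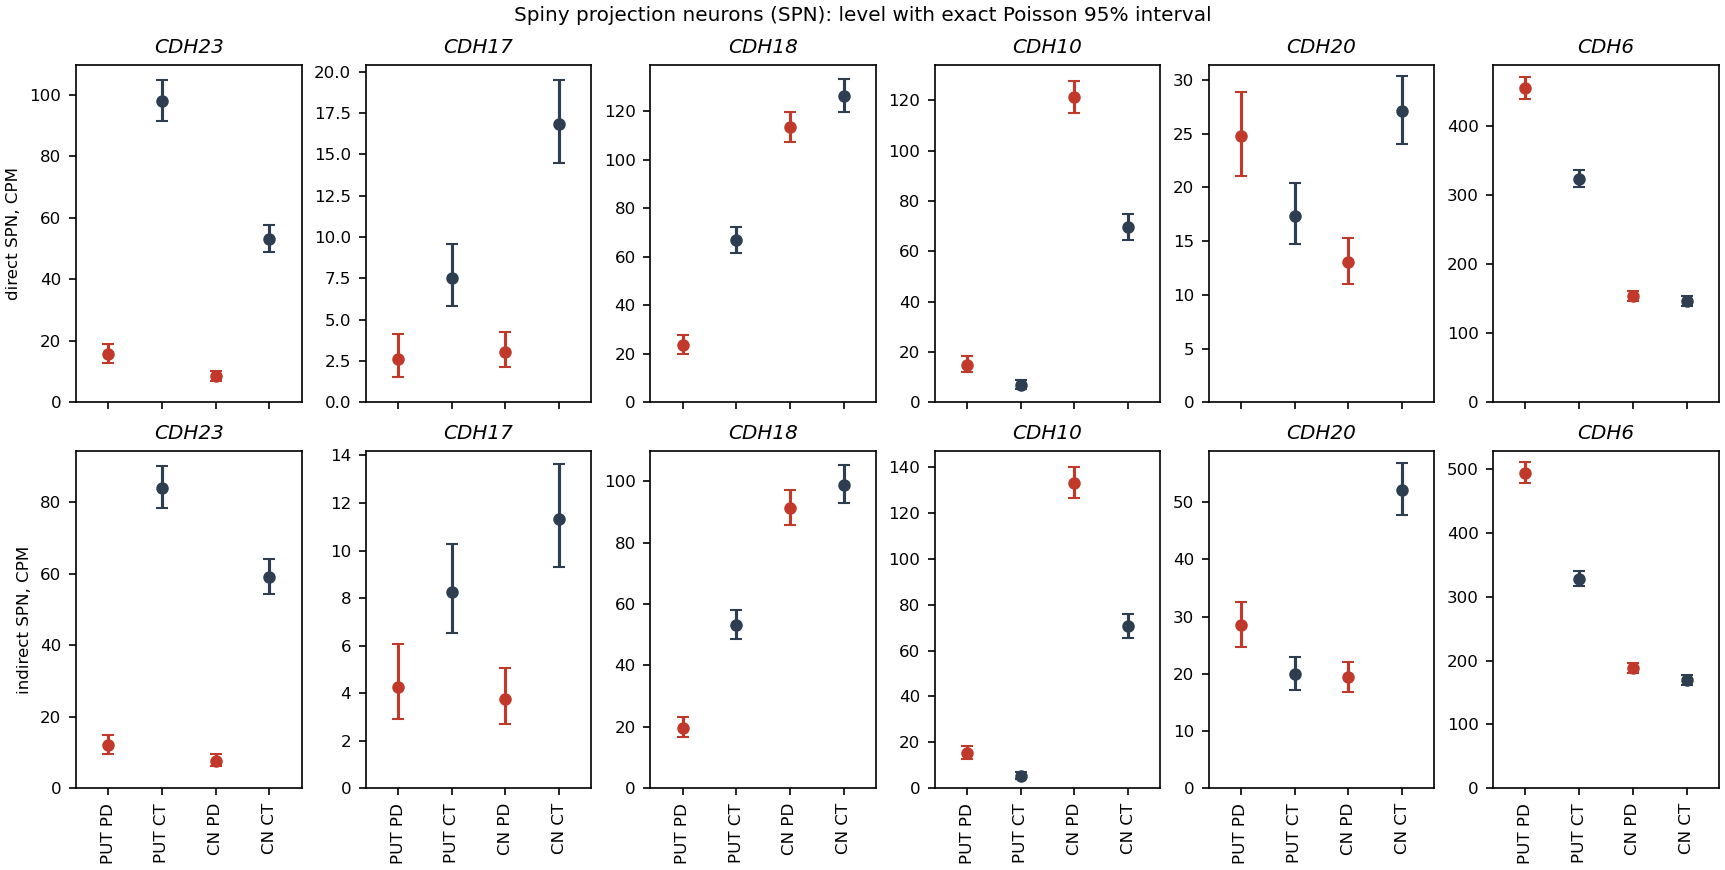
CPM with exact Poisson 95% intervals of 6 genes in direct (top) and indirect (bottom) SPNs, by region, PD in red to the left of CT in dark blue. CDH23 is lower in PD in all 4 pairs, CDH18 in PUT, CDH20 turns round between PUT and CN, and CDH10 and CDH6 differ more between regions than between groups.

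CDH13 had its highest ratios in undivided SPNs of both striatal regions, followed by other neurons of CN. In undivided SPNs it was 774 CPM in PD and 173 CPM in CT in PUT (4.48, 3.57 to 5.65) and 384 CPM in PD and 37.5 CPM in CT in CN (10.2, 7.18 to 15.1). In PUT most nuclei of both groups shared cluster 11.3 (85 PD, 102 CT), where CDH13 was 821 CPM in PD and 200 CPM in CT. In CN the PD nuclei were in cluster 11.4 (190 PD, 16 CT) and the CT nuclei in cluster 11.2 (4 PD, 185 CT), so the group and the cluster cannot be told apart there. In the same class PCDH7 was lower, 89.5 CPM in PD and 349 CPM in CT in CN (0.257, 0.202 to 0.324) and 325 CPM in PD and 633 CPM in CT in PUT (0.513), and CDH4 in PUT was higher, 76.0 CPM in PD and 30.8 CPM in CT (2.47, 1.35 to 4.65), and 85.98 CPM in PD and 27.7 CPM in CT within cluster 11.3. These were 2 genes higher and 0 lower of 15 in PUT (all genes 1.73% and 1.71%) and 1 higher and 1 lower of 16 in CN (1.36% and 2.93%).

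Other neurons of CN (363 nuclei in PD, 464 in CT) had 3 of 21 genes past 2-fold higher in PD and none lower, against 1.05% and 2.4% of all genes. The markers of neuron types in these nuclei differed between the groups. The 4 glutamatergic markers summed to 66.7 CPM in PD and 5.41 CPM in CT, the 10 striatal interneuron markers to 841 CPM in PD and 1215 CPM in CT, and the 3 GABAergic markers to 754 CPM in PD and 804 CPM in CT. Their part in the 3 results was not tested. CDH13 was 962 CPM in PD and 268 CPM in CT (3.59, 3.21 to 4.02), and higher in PD in 3 of 3 shared clusters, such as cluster 21.1 with 1329 CPM in PD and 505 CPM in CT. CDH12 was 165 CPM in PD and 48.7 CPM in CT (3.39, 2.60 to 4.47). A cluster of 25 PD nuclei and 1 CT nucleus, cluster 10.9, had 925 CPM of CDH12 in PD. The 3 clusters with at least 20 nuclei of both groups had a CDH12 ratio of 1.66 when weighted equally. CDH6 was 30.4 CPM in PD and 13.5 CPM in CT (2.24, 1.30 to 4.004), on 46 and 20 UMIs, but of the 3 shared clusters 1 was higher and 2 were lower in PD, each on 5 UMIs or fewer a group. In other neurons of PUT (201 nuclei in PD, 249 in CT), CDH10 and CDH6 were the 2 genes higher of 21, with none lower (all genes 1.02% and 1.36%). CDH6 had 41.7 CPM in PD and 20.7 CPM in CT there (2.01, 1.16 to 3.56), and was higher in 2 of 2 shared clusters. CDH13, unlike in CN, was not past 2-fold in other neurons of PUT, and was lower in PD in 2 of 2 shared clusters.

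In striatal glia the differences were fewer. CDH4 was higher in PD in astrocytes of PUT, 1026 CPM in PD and 486 CPM in CT (2.11, 1.64 to 2.72), 1 of 10 genes with none lower (all genes 2.08% and 2.76%), and in CN it was 745 CPM in PD and 433 CPM in CT (1.72). In PUT cluster 18.1, which held nuclei of both groups, it was 1095 CPM in PD and 493 CPM in CT. In precursors of PUT CDH4 was 193 CPM in PD and 92.1 CPM in CT (2.09, 1.27 to 3.55), higher in the 1 shared cluster, 1 of 16 genes higher and none lower (all genes 0.934% and 1.19%). In precursors of CN the single gene of 18 was PCDH10, the OL-protocadherin, lower at 87.3 CPM in PD and 191 CPM in CT (0.458, 0.303 to 0.682), and lower in the 1 shared cluster, where all genes were lower in 1.08% and higher in 0.931%. In astrocytes of CN, oligodendrocytes of PUT and microglia or macrophages of PUT none of 13, 23 and 9 genes passed 2-fold. All genes did so in 1.27% higher and 3.01% lower, 1.49% and 4.44%, and 2.48% and 2.25%.

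Oligodendrocytes of CN had 2 genes higher and 1 lower of 22 (all genes 1.66% and 2.84%). The higher ones were CDH10, 28.8 CPM in PD and 13.6 CPM in CT (2.11, 1.34 to 3.46), and CDH7, 31.3 CPM in PD and 14.8 CPM in CT (2.11, 1.37 to 3.38). CDH10 was higher in 4 of 4 shared clusters and CDH7 in 3 of 4. In these oligodendrocytes the 7 neuron markers summed to 2406 CPM in PD and 1626 CPM in CT, and the 7 precursor markers to 805 CPM in PD and 530 CPM in CT, while CDH10 in precursors of CN was 455 CPM in PD and 444 CPM in CT. The part of neuron or precursor RNA was not tested. CDH7 had a ratio of 1.08 with the cadherin and protocadherin genes allowed into the clustering and 1.34 in thinned nuclei. Microglia or macrophages of CN (356 nuclei in PD, 189 in CT) had 1 gene higher and 1 lower of 6 (all genes 4.02% and 1.71%). PCDH17 was 129 CPM in PD and 42.7 CPM in CT (3.03, 1.37 to 7.92) on 50 and 7 UMIs, and 127 CPM in PD and 39.3 CPM in CT in the 1 shared cluster. CDH13 was 54.3 CPM in PD and 311 CPM in CT (0.175, 0.0998 to 0.295) on 21 and 51 UMIs, and 50.9 CPM in PD and 281 CPM in CT in that cluster. The neuron markers summed to 2793 CPM in PD and 1781 CPM in CT there.

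Regions were compared within each group, so that the PD libraries gave a second pair of libraries for each ratio. In SPNs, PUT over CN, 2 of 29 genes in direct and 2 of 30 in indirect SPNs were at least 4-fold lower in PUT in the CT pair and 2-fold lower in the PD pair, and none was higher, against 0.537% and 0.52% of all genes lower and 0.167% and 0.194% higher. They were CDH10 and PCDH19. CDH10 in direct SPNs was 14.98 CPM in PUT and 121 CPM in CN in PD (ratio 0.124, 0.0996 to 0.152), and 6.75 CPM in PUT and 69.5 CPM in CN in CT (0.0971, 0.0732 to 0.127). In indirect SPNs its ratios were 0.116 in PD and 0.0740 in CT. PCDH19 in direct SPNs was 0.611 CPM in PUT and 6.08 CPM in CN in PD, on 4 and 70 UMIs (0.1005, 0.0266 to 0.269), and 0.801 CPM in PUT and 8.29 CPM in CN in CT, on 7 and 89 UMIs (0.0966, 0.0377 to 0.207). The SPNs of the 2 striatal nuclei thus differed in CDH10 by more than the PD and CT groups did within a region.

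Smaller regional differences ran both ways. CDH6 in direct SPNs was 454 CPM in PUT and 154 CPM in CN in PD (ratio 2.96) and 323 CPM in PUT and 146 CPM in CN in CT (2.22). CDH9 in direct SPNs was 103 CPM in PUT and 282 CPM in CN in PD (0.365) and 79.5 CPM in PUT and 197 CPM in CN in CT (0.404). CDH23 in direct SPNs had a PUT over CN ratio of 1.87 in PD and 1.85 in CT. CDH8 in direct SPNs had ratios nearer to 1 (0.8496 in PD, 0.991 in CT).

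For SN over PUT, CDH7 in oligodendrocytes was 10.3 CPM in SN and 32.3 CPM in PUT in PD (0.320, 0.236 to 0.432) and 2.52 CPM in SN and 22.0 CPM in PUT in CT (0.115, 0.0698 to 0.182), 1 of 23 genes with none higher (all genes 2.17% lower and 1.1% higher). In microglia or macrophages CDH8 and CDH13 were lower in SN, 2 of 7 genes with none higher (1.4% lower and 0.291% higher). CDH8 was 28.0 CPM in SN and 144 CPM in PUT in PD, and 31.2 CPM in SN and 128 CPM in PUT in CT. CDH7 and CDH8 were high in SPNs, a class of PUT and CN here. The 8 SPN markers in oligodendrocytes summed to 252 CPM in SN and 1174 CPM in PUT in PD, and to 241 CPM in SN and 1050 CPM in PUT in CT. In microglia or macrophages they summed to 73.5 CPM in SN and 1463 CPM in PUT in PD. In CT the sums in that class were 48.97 CPM in SN and 1286 CPM in PUT. The part of SPN RNA in these ratios was not tested. No gene passed this rule in precursors between SN and PUT (17 measured, where all genes reached it in 0.173% lower and 0.104% higher), nor between PUT and CN in oligodendrocytes, precursors, astrocytes or microglia and macrophages (21, 16, 12 and 5 measured, where at most 0.168% of all genes reached it in either direction).

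Genes that act with cadherins were counted over the same 21 comparisons, from lists drawn up by function with earlier results of these data known. Over all pairs of a gene and a class, 1.76% were higher and 2.8% lower. The catenins and their partners (10 of 11 in the annotation) had 1 higher and 2 lower of 173 pairs, and both lower ones were CTNNA2, the neural α-catenin, in striatal astrocytes. It was 561 CPM in PD and 1450 CPM in CT in PUT (0.387, 0.300 to 0.494) and 847 CPM in PD and 1877 CPM in CT in CN (0.451, 0.4003 to 0.507). The 1 higher pair was also CTNNA2, in microglia or macrophages of CN. There it was 264 CPM in PD and 85.4 CPM in CT (3.09, 1.76 to 5.85), on 102 and 14 UMIs. Other genes of the cadherin superfamily had 11 higher and 2 lower of 148 pairs. DSC3, a desmosomal cadherin, was higher in PD in 5 of them. It had 12.5 CPM in PD and 2.64 CPM in CT in dopaminergic neurons (4.73, 2.58 to 9.27) and 14.7 CPM in PD and 4.50 CPM in CT in indirect SPNs of PUT (3.27, 2.28 to 4.78). CLSTN2, a calsyntenin of synapses, was higher in undivided SPNs, with 150 CPM in PD and 32.5 CPM in CT in PUT and 523 CPM in PD and 131 CPM in CT in CN. The values of CTNNA2, DSC3 and CLSTN2 were not set beside shared clusters. In dopaminergic neurons and in undivided SPNs of CN, the PD and CT nuclei lay mostly in different clusters. WAVE complex genes had 1 higher and 0 lower of 141 pairs, chromatin regulators of the clustered protocadherins 1 higher and 1 lower of 158, and cadherin-shedding proteases 0 higher and 2 lower of 91.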

How the data were processed

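Nuclei were isolated with the Nuclei PURE Prep kit and made into 10x Genomics 3′ version 3 libraries, per the labels' protocols, which give the species as Macaca mulatta, unlike the organism field (Macaca fascicularis). The submitters' processing notes name Cell Ranger 7.0.1 and the build hg38, while the gene identifiers are of Macaca fascicularis. Intron use and the handling of shared reads are not given in the sources used here. The deposited values are raw UMI counts per gene and barcode, 1 matrix for each region and group, with 18692617 to 36723856 UMIs a matrix. No coordinates are printed.

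Barcodes were retained if they had 500 genes or more, mitochondrial UMIs of 5% or less, and a doublet score from Scrublet no higher than 0.25 (scanpy 1.11.5). Doublet scores above that limit marked 1.93% to 5.98% of barcodes. Nuclei of all matrices were clustered together on 2000 variable genes and 30 principal components with the Leiden method (leidenalg 0.10.2), without the cadherin and protocadherin genes, and sub-clustered. Clusters were named from 117 markers in the annotation, of 120 listed, by limits set after the clusters were seen. Free RNA was not removed.

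UMIs were summed per class, region and matrix. A class was compared with at least 100 nuclei a group, and a gene was measured with at least 50 UMIs over both. Levels have exact Poisson and ratios exact conditional binomial 95% intervals (scipy 1.17.1, numpy 2.4.6, pandas 2.3.3, Python 3.11.15, scikit-learn 1.9.0, matplotlib 3.10.9). With 1 library a group there is no test. The ratio script was checked on simulated data.

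Genes were named where a ratio was past 2-fold with an interval that leaves out 1, up to 6 a direction, or past it the same way in 2 or more comparisons, where the highest class was at least 5 times the next of another family, where a region ratio was past 4-fold in CT and 2-fold in PD, and as the members with the most UMIs in a family. Other genes were named after their values were seen. The members and lists were chosen with earlier results of these data known. RefSeq names were used to look for overlapping genes: no gene past 2-fold overlapped another counted gene, and CDH10 was not matched there by symbol.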

Additional observations from a re-analysis of the deposited data

Results flagged for a closer look

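CDH20 differed in direction between the 2 striatal regions. In direct SPNs its PD over CT ratio was 1.42 in PUT and 0.481 in CN. In indirect SPNs it was 1.43 in PUT and 0.371 in CN. The difference between regions was not tested, since each value rests on 1 library a group.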

How the results depend on the processing

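No paired analysis was possible because the matrices do not map nuclei to the numbered samples, and leaving out replicates was not run for the same reason. Counts of pairs of a gene and a class past 2-fold changed with several settings. In SN the main counts were 8 higher and 2 lower in PD. They were 5 lower with a minimum of 20 UMIs, 5 higher and 1 lower with 200 UMIs, 1 lower in nuclei with at least 1000 genes, 5 higher in nuclei thinned to 1000 UMIs, and 5 lower in clusters with at least 20 nuclei of both groups, an alternative chosen after seeing the data. In PUT 8 were higher, against 3 with 200 UMIs, 2 in thinned nuclei and 1 in clusters with at least 50 nuclei of both groups. In CN 8 were higher and 10 lower, against 13 higher with 20 UMIs, 4 higher and 6 lower with 200 UMIs, 5 lower in thinned nuclei, and 5 higher and 4 lower in clusters with at least 50 nuclei of both groups. The higher UMI minimum, thinning and the cluster rules measure fewer pairs by construction. Of the 41 ratios past 2-fold, 1 reversed: CDH4 in SN dopaminergic neurons was 0.695 in clusters with at least 20 nuclei of both groups. The cause was not tested. Of 35 ratios with a value under that rule 12 moved beyond their interval, as did 8 of 25 in thinned nuclei and 4 of 18 in clusters with at least 50 nuclei. The highest class was kept in 112 of 127 pairs of a gene and a library after thinning and in 119 of 127 in nuclei with at least 1000 genes. All 14 region ratios recomputed kept their direction. Counting error limits the ratios on few UMIs, and the spread between animals is unknown.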
